A study of Homo sapiens with 12 samples.

Results

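The miR-26 and miR-103/miR-107 families were followed together with the protein-coding genes that carry them, in human HEK293T cells given siRNA against ERI2 or a control siRNA. The set holds 10 members, taken by name: 4 mature miRNA names (miR-26a-5p, miR-26b-5p, miR-103a-3p and miR-107) of the 2588 in the miRNA table, and 6 host genes (CTDSPL, CTDSP2, CTDSP1, PANK3, PANK2 and PANK1) of the 55765 names in the gene table. The rule uses names and no measured value, but the members were chosen with earlier results of these data known. All 10 members passed the filter on low counts and were tested. All 12 libraries came from this embryonic kidney line, which carries a viral large T antigen, with 3 libraries per group in each of RNA-seq and miRNA-seq. By the labels' protocol, both groups received siRNA at 50 nM by lipofection in 2 rounds, the later round 48 h after the earlier one, and were collected 72 h after the later round. The treatment protocol also names ERI-1 siRNAs and a harvest for microarrays, so whether this dose and timing were written for these libraries is unclear. HEK293, the parental line, is the name in the growth protocol. The ERI2 siRNA group, called knockdown here, had no companion group with another ERI2 siRNA and no rescue, so loss of ERI2 cannot be told apart from what else this siRNA may do. Whether replicates were separate cultures is not in the labels, and p-values thus speak only of differences among these libraries, some or all of them possibly technical. RNA was prepared from whole cultures, so fewer cells holding a transcript and less of it per cell cannot be told apart.

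A miRNA is cut from a hairpin in a longer transcript by Drosha with DGCR8, exported, cut again by Dicer, and loaded as a single strand into an Argonaute protein. Its seed, bases 2 to 8 from the 5′ end, pairs with target mRNAs, which are then repressed. The hairpins of miR-26 lie in introns of the CTDSP genes, which encode small phosphatases acting on the C-terminal domain of RNA polymerase II and recruited by REST, a repressor of neuronal genes. The hairpins of miR-103/miR-107 lie in introns of the PANK genes, which encode pantothenate kinases, the enzymes of the rate-limiting step of coenzyme A synthesis. Host transcript and miRNA can thus start from one primary RNA while their mature products have separate lives.

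The mature sequences below are shown because the tables assign reads to names on these few bases. They come from RefSeq (GRCh38.p14), where 2281 of the 2588 names in the miRNA table had an entry, and the seed is in capitals:
miR-26a-5p: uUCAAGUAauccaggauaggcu
miR-26b-5p: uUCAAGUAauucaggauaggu
miR-4465: cUCAAGUAgucugaccagggga
miR-103a-3p: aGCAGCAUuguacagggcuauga
miR-107: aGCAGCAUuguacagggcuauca
miR-103b: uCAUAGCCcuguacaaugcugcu
miR-16-5p: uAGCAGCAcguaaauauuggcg

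With positions counted from 1 at the 5′ end, miR-26a-5p (22 bases) and miR-26b-5p (21 bases) differed over their 21 shared positions by C11U and C21U, written with the base of miR-26a-5p first. miR-103a-3p and miR-107, both of 23 bases, differed by G22C alone, so a read that ends before that position fits both names. The seed UCAAGUA of miR-26a and miR-26b was also found in miR-1297 and miR-4465, and the seed GCAGCAU was shared by miR-103a and miR-107. miR-16 and miR-15a carry AGCAGCA at the same bases, the run that ties miR-103/miR-107 to the wider miR-15/miR-107 group. miR-103b is the exact reverse complement of miR-103a-3p over all 23 bases and is read from the opposite strand of the same loci.

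The hairpins show where each mature form sits and why 2 of the 4 cannot be traced to 1 host. They are given from RefSeq, GRCh38.p14, with the mature form in capitals, while the deposited counts were made on hg19. MIR26A1 at chr3:37969404-37969480 on the plus strand lies within CTDSPL, MIR26A2 at chr12:57824609-57824692 on the minus strand within CTDSP2, and MIR26B at chr2:218402646-218402722 on the plus strand within CTDSP1. MIR103A1 at chr5:168560896-168560973 on the minus strand lies within PANK3, MIR103A2 at chr20:3917494-3917571 on the plus strand within PANK2, and MIR107 at chr10:89592747-89592827 on the minus strand within PANK1.
MIR26A1: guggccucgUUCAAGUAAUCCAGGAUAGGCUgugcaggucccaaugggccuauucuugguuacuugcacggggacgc
MIR26A2: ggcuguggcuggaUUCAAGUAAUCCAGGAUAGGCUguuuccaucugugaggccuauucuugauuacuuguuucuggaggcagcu
MIR26B: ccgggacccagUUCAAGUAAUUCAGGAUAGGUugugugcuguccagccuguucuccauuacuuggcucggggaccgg
MIR103A1: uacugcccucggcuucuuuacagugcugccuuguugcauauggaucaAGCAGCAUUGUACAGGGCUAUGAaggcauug
MIR103A2: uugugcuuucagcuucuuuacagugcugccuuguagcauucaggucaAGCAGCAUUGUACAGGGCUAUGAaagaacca
MIR107: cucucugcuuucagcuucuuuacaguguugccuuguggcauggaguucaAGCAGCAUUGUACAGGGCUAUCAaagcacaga

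The mature form sits in the 5′ arm of the 3 miR-26 hairpins and in the 3′ arm of the 3 miR-103/miR-107 hairpins. Both MIR26A1 and MIR26A2 give the same mature miR-26a-5p, and both MIR103A1 and MIR103A2 the same miR-103a-3p. Counts of miR-26a-5p and miR-103a-3p therefore cannot be assigned to CTDSPL or CTDSP2, or to PANK3 or PANK2. Only miR-26b-5p with CTDSP1 and miR-107 with PANK1 form pairs of 1 mature name and 1 host.

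In units of 1e+06 counts, depth was 0.723 to 1.03 per miRNA library and 29.1 to 38.3 per RNA-seq library, and tested names took at least 99.3% and 99.9% of it. ERI2, the target of the siRNA, was at 55.7 ± 2.20 CPM (SD, n = 3; CPM, counts per 1e+06 after TMM scaling) in control and 34.3 ± 1.67 CPM in knockdown libraries, a log2 fold change of -0.70 (SE 0.0762, adjusted p = 0.000683 by Benjamini-Hochberg in edgeR's quasi-likelihood test). Of 7 markers of the HEK293 lines, 6 had a mean of at least 1 CPM, and their summed level ran from 924 to 1059 CPM in control and from 718 to 907 CPM in knockdown libraries. Of 9 markers of blood, keratinocytes, fibroblasts, liver and endothelium in the gene table, 1 did, the fibroblast collagen gene COL3A1 (5.92 ± 0.547 CPM in control and 2.85 ± 0.935 in knockdown libraries), and the other 8 summed to between 0.378 and 1.13 CPM in any library, with the keratinocyte gene KRT5 at 0 in all 6. COL3A1 and the neurofilament genes NEFL and INA of the HEK293 list passed as lower, and the part of such differences in the results was not tested. With replicates 2 and 3 of each group alone 5292 genes passed in place of 1609, so host genes are also given that way where their call changes. TMM scaling, which assumes that most names do not change, gave factors from 0.639 to 0.677 in control and from 1.45 to 1.63 in knockdown miRNA libraries, against 0.954 to 1.04 in RNA-seq. The median log2 fold change of all 1316 tested miRNA names was 0.05 with TMM and 1.27 with total library size as the only scaling, so each miRNA value is given on both scales and is to be read against that median. Total CPM stands for counts per 1e+06 of a library's total counts.

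All 4 mature members were lower in the knockdown libraries, by 5.08- to 5.70-fold with TMM scaling and by 2.19- to 2.45-fold when scaled to total library size. Each passed edgeR's quasi-likelihood test on both scales, and knockdown replicate 2 was the lowest library for all 4. Across all tested miRNA names, 34.1% passed the test in either direction with TMM, 23% as lower with TMM and 13.6% as lower with total library size. In either direction, 1210 of the 1316 passed with total library size. The share of all miRNA names whose groups did not overlap is not given here, so separation of a name's libraries is description only. The 4 names are not 4 independent results, since they share libraries and, in pairs, most of their bases. They were also chosen with earlier results of these data known.

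miR-26a-5p was the most abundant member, and is known as a broadly expressed miRNA that restrains growth in many tumours. It had 10658, 10171 and 9738 counts in control replicates 1 to 3 and 7066, 3789 and 5478 in knockdown replicates 1 to 3. In total CPM these were 13186, 13286 and 13465 in control and 6865, 5108 and 5807 in knockdown libraries. The control libraries lay close together, the knockdown libraries spread more, and the groups did not overlap. The mean of 13312 ± 141 (SD, n = 3) total CPM in control and 5926 ± 885 in knockdown libraries left 44.5% of the control level. With TMM scaling the log2 fold change was -2.38 (SE 0.148; edgeR's quasi-likelihood test, Benjamini-Hochberg adjusted p = 1.83e-08), and with total library size it was -1.16 (adjusted p = 4.49e-12). By mean CPM it ranked 11th of all names in control and 30th in knockdown libraries.

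miR-26b-5p shares the seed of miR-26a-5p and comes from CTDSP1 alone. It had 239, 214 and 202 counts in the control and 133, 71 and 113 counts in the knockdown libraries. In total CPM it was at 296, 280 and 279 in control and at 129, 95.7 and 120 in knockdown libraries, again without overlap. Its mean went from 285 ± 9.39 (SD, n = 3) to 115 ± 17.3 total CPM, 40.3% of control. The log2 fold change was -2.51 with TMM (SE 0.151; edgeR's quasi-likelihood test, Benjamini-Hochberg adjusted p = 1.38e-08) and -1.29 with total library size (adjusted p = 2.87e-10).

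miR-103a-3p, known for its reported repression of DICER1 and for roles in insulin sensitivity, had 2501, 2371 and 2216 counts in the control and 1554, 736 and 1278 in the knockdown libraries. In total CPM the control libraries were at 3094, 3097 and 3064 and the knockdown libraries at 1510, 992 and 1355. The 3 control values differed by little, and every knockdown value lay below them. The mean of 3085 ± 18.3 (SD, n = 3) total CPM became 1286 ± 266, or 41.7% of control. The log2 fold change was -2.47 with TMM (SE 0.166; edgeR's quasi-likelihood test, Benjamini-Hochberg adjusted p = 2.87e-08) and -1.26 with total library size (adjusted p = 9.11e-12).

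miR-107, which has the seed of miR-103a-3p and comes from PANK1 alone, had 595, 490 and 461 counts in the control and 391, 183 and 269 in the knockdown libraries. In total CPM this was 736, 640 and 637 against 380, 247 and 285. Among control libraries replicate 1 was the highest, and the groups did not overlap. Means were 671 ± 56.2 (SD, n = 3) and 304 ± 68.5 total CPM, 45.3% of control. The log2 fold change was -2.34 with TMM (SE 0.168; edgeR's quasi-likelihood test, Benjamini-Hochberg adjusted p = 4.90e-08) and -1.13 with total library size (adjusted p = 1.44e-09).

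**Figure D1:**
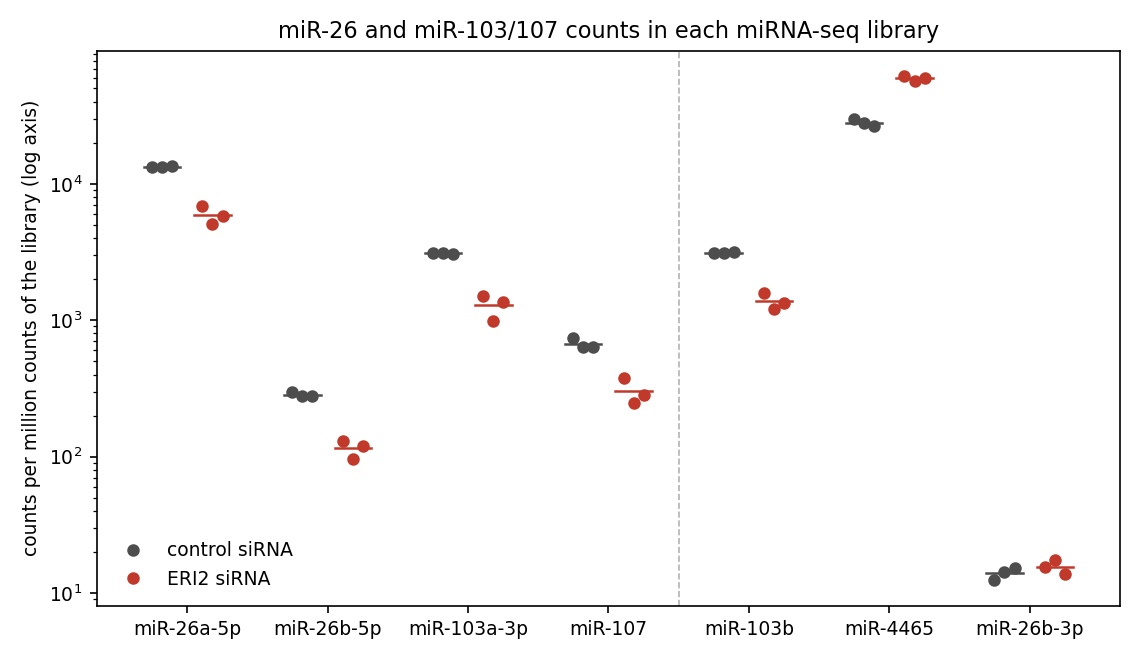
Total CPM (log axis) of the 4 mature members, left of the dashed line, and of 3 names that share their seed or hairpin, right of it; points are control and ERI2 siRNA libraries and short lines are group means. The 4 members lie lower in all 3 knockdown libraries, miR-26a-5p at 5108 to 6865 against 13186 to 13465 total CPM, while miR-4465 lies higher on this scale.

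Together the 4 members made up 1.74% ± 0.00797 (SD, n = 3) of all miRNA counts in control and 0.763% ± 0.122 in knockdown libraries. In rank by mean CPM, miR-103a-3p went from 40th in control to 113th in knockdown libraries, miR-107 from 126th to 265th and miR-26b-5p from 227th to 457th. Over 16 alternatives of test, scaling, filter and libraries each of the 4 was below the threshold of 0.05 every time, with log2 fold changes between -2.71 and -1.13. The size of the difference thus depended on the scaling and its call did not in the alternatives run.

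Ratios of 2 names within a library do not depend on scaling. Counts of miR-26a-5p were 44.6, 47.5 and 48.2 times those of miR-26b-5p in control and 53.1, 53.4 and 48.5 times in knockdown libraries. The groups did not overlap, but the nearest 2 libraries were close, and the difference of the mean log2 ratio was 0.14 (two-sided exact permutation test, n = 3 against 3, p = 0.1, the smallest this design allows; 0.167 after Benjamini-Hochberg adjustment over 5 ratios). Counts of miR-103a-3p were 4.20, 4.84 and 4.81 times those of miR-107 in control and 3.97, 4.02 and 4.75 times in knockdown libraries. These groups overlapped, and the mean log2 ratio differed by -0.12 (exact permutation p = 0.2, adjusted 0.25). This ratio also depends on how reads that fit both names were assigned. Both shifts were small beside the log2 fold changes of the names themselves. miR-26b-5p made up 2.10% ± 0.0860 (SD, n = 3) of miR-26a-5p plus miR-26b-5p in control and 1.90% ± 0.103 in knockdown libraries, and miR-107 17.9% ± 1.18 of miR-103a-3p plus miR-107 in control and 19.1% ± 1.52 in knockdown libraries.

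The names that share the hairpins or the seeds did not all move with the members. Of the 7 other arms and antisense names looked for, 5 were in the table and 2 passed the filter on low counts, miR-103b and miR-26b-3p. miR-103b had 2521, 2396 and 2274 counts in the control and 1636, 898 and 1253 in the knockdown libraries, and fell by 2.40 on the log2 scale with TMM (adjusted p = 1.19e-08) and by 1.18 with total library size (adjusted p = 7.97e-12).

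The counts of miR-103b were nearly those of its reverse complement miR-103a-3p, except in knockdown replicate 2 (898 against 736). miR-103a-3p made up 49.8% (exact Clopper-Pearson 95% interval 48.4 to 51.2), 49.7% and 49.4% of both in the control libraries and 48.7%, 45.04% (42.6 to 47.5) and 50.5% in the knockdown libraries. These intervals cover counting error only. The ratio of the 2 names averaged 0.985 ± 0.00951 (SD, n = 3) in control and 0.930 ± 0.102 in knockdown libraries (exact permutation p = 0.6, adjusted 0.6). Other names were also reverse complements over at least 16 bases, with at least 600 counts each. In miR-3184-3p with miR-423-5p the second held 50.9% of both, and in miR-3184-5p with miR-423-3p the second held 83.5%. In miR-103b with miR-107, miR-107 held 17.9%. Where only 1 name of a pair held that many counts, in miR-345-5p with miR-378i, the second held 1.12%. The sources used here give no strand setting for the miRNA alignment, so reads of miR-103a-3p and miR-103b cannot be told apart, and the level of each is uncertain by that amount. The same holds for miR-107, which differs from miR-103a-3p by G22C alone.

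miR-26b-3p, the other arm of the miR-26b hairpin, had 10, 11 and 11 counts in the control and 16, 13 and 13 in the knockdown libraries. Its direction depended on the scaling, with a log2 fold change of -1.05 with TMM (SE 0.284; edgeR's quasi-likelihood test, Benjamini-Hochberg adjusted p = 0.0107; 0.0617 without control replicate 3 and 0.0624 in DESeq2) and of 0.16 with total library size (adjusted p = 0.656). The ratio of the 2 arms within a library does not carry that dependence. Counts of miR-26b-5p were 23.9, 19.5 and 18.4 times those of miR-26b-3p in control and 8.31, 5.46 and 8.69 times in knockdown libraries, without overlap. The mean log2 ratio was lower by 1.48 in knockdown libraries (exact permutation p = 0.1, the smallest possible; adjusted 0.167). The arm ratio, like those with miR-103b and miR-4465, was chosen after its counts were seen. miR-26a-1-3p (1 to 5 counts per library), miR-26a-2-3p (3 to 20) and miR-103a-2-5p (2 to 6) did not pass the filter on low counts and were not tested in the main fit. miR-26a-2-3p had 9, 17 and 20 counts in the control and 9, 3 and 9 in the knockdown libraries. With replicates 2 and 3 alone it passed the filter, but only through the control libraries where it was high, so no test of it is given.

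miR-4465 has the miR-26 seed and differs from miR-26a in most bases after it. It had 24018, 21488 and 19074 counts in the control and 63523, 41905 and 56206 in the knockdown libraries, the highest of any name with that seed. With TMM its log2 fold change was -0.14 (adjusted p = 0.422), and with total library size it was 1.08 (adjusted p = 7.49e-12), so of these 2 scalings it rose on the latter only. The ratio of miR-26a-5p to miR-4465 counts was 0.444, 0.473 and 0.511 in control and 0.111, 0.0904 and 0.0975 in knockdown libraries. Its mean log2 value was lower by 2.26 in knockdown libraries without overlap (exact permutation p = 0.1, adjusted 0.167). miR-1297 was counted 0 times in 5 libraries and once in knockdown replicate 1.

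Names with the miR-26 seed together made up 4.17% ± 0.154 (SD, n = 3) of miRNA counts in control and 6.53% ± 0.351 in knockdown libraries. Of that sum, miR-26a-5p and miR-26b-5p held 32.7% ± 1.53 in control and 9.22% ± 0.885 in knockdown libraries. On the scale of total counts, the share with this seed thus did not follow those of the 2 members. The median of all names also rose on that scale. With TMM, mean CPM went from 43054 in control to 39113 in knockdown libraries for miR-4465. For miR-26a-5p it went from 20453 to 3927 and for miR-26b-5p from 437 to 76.2. The direction for the seed as a whole therefore depended on the scaling, and with TMM it was lower.

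Among all tested names 23% passed as lower with TMM and 13.6% with total library size. In the miR-15/miR-107 group, whose members share the run AGCAGC, 6 of 8 further names were tested and 5 passed as lower with TMM. The median log2 fold change was -2.39 over the 6 beside 0.05 over all names. Log2 fold changes with TMM were -2.65 for miR-15b-5p, -2.58 for miR-424-5p, -2.41 for miR-16-5p and -2.37 for miR-15a-5p. With total library size these 4 passed as lower too. miR-16-5p, known to restrain BCL2 and the cell cycle, was at 17798 ± 275 (SD, n = 3) total CPM in control and 7766 ± 1296 in knockdown libraries. miR-503-5p was lower with TMM (-1.06) and at 0.16 with total library size, where it did not pass (adjusted p = 0.503). miR-646 had a log2 fold change of 0.77 (adjusted p = 0.0849) with TMM and 1.98 with total library size, where it passed as higher (adjusted p = 4.32e-07).

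Falls of this size were common among abundant names. Of 441 names with a mean of at least 100 CPM, 168 passed as lower, 104 had a log2 fold change of -2 or less and 254 lay between -0.5 and 0.5. Of all names called lower, 87 fell at least as much as miR-107, the member with the smallest change. The 3 names whose pattern over the 6 libraries was most like that of miR-26a-5p, by the root mean square difference of log2 CPM after subtracting each name's mean over the 6 libraries, among those 441 names, were miR-98-5p (0.0113), miR-103b (0.0182) and miR-16-5p (0.0290). For miR-26b-5p they were miR-30b-5p, miR-27b-3p and miR-191-5p, for miR-103a-3p miR-340-5p, miR-191-5p and miR-10a-5p, and for miR-107 miR-197-3p, miR-222-3p and miR-19a-3p. The measure picks names of similar log2 fold change, so their likeness in it is no result.

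**Figure D2:**
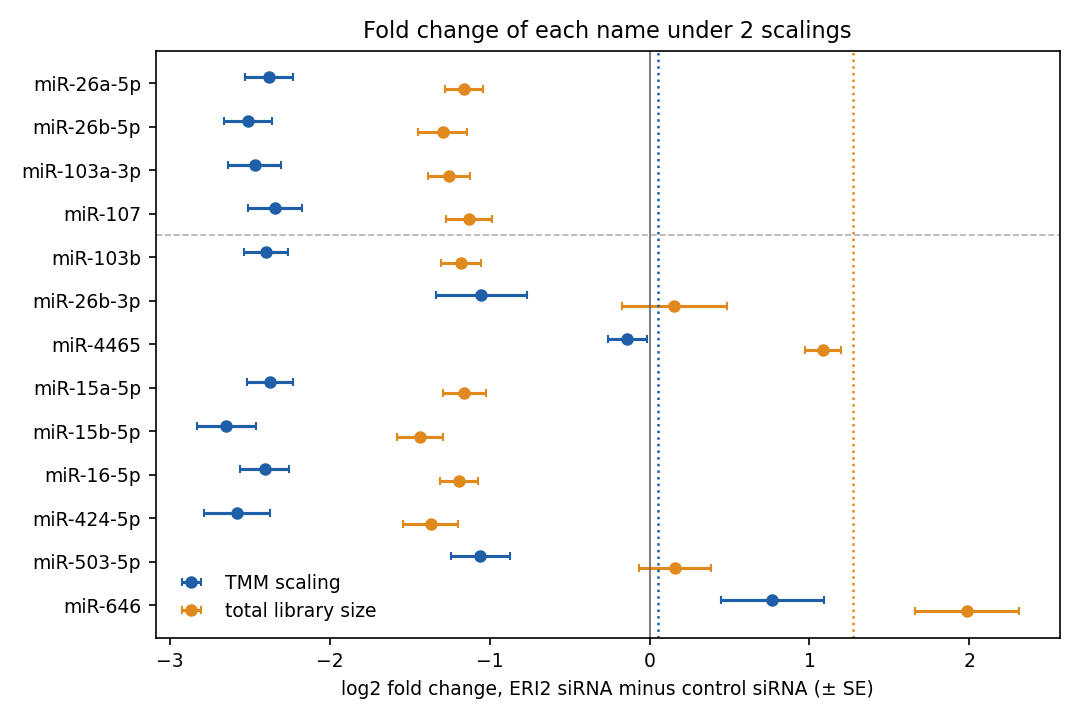
Log2 fold change (ERI2 siRNA minus control siRNA) with its SE for the 4 members, above the dashed line, and 9 related names under TMM scaling (blue) and total library size (orange); dotted lines mark the median of all tested names under each, 0.05 and 1.27. The members lie between -2.51 and -2.34 with TMM and between -1.29 and -1.13 with total library size, and miR-26b-3p, miR-503-5p and miR-4465 change sign between the 2 scalings.

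Base composition of the mature sequence moved with the fold change. The members have a GC content of 33.3% (miR-26b-5p), 40.9% (miR-26a-5p) and 47.8% (miR-103a-3p and miR-107), against 54.5% in miR-4465. Among names with at least 100 CPM and a RefSeq sequence, the 29 with up to 40% GC had a median log2 fold change of -2.41 and 28 of them passed as lower. The 62 with 40% to 50% GC had a median of -2.35 with 53 lower, the 57 with 50% to 60% a median of -0.46 with 29 lower, and the 96 with 60% to 70% a median of 0.06 with 26 lower. Above 70% GC the median was 0.26, and 7 of 144 names passed as lower and 55 as higher. Over all tested names with a sequence the classes differed less, with a median of -2.03 up to 40% GC (53 of 80 lower) and of -0.32 from 40% to 50% GC (100 of 234 lower, lower quartile -2.14). The members with 40% to 50% GC, at -2.47 to -2.34, thus lay near the median of abundant names of their class and below that quartile of all names in it. With total library size the medians of names with at least 100 CPM from the lowest to the highest GC class were -1.19, -1.14, 0.76, 1.28 and 1.48. The part of base composition in the fall of the members was not tested.

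**Figure D3:**
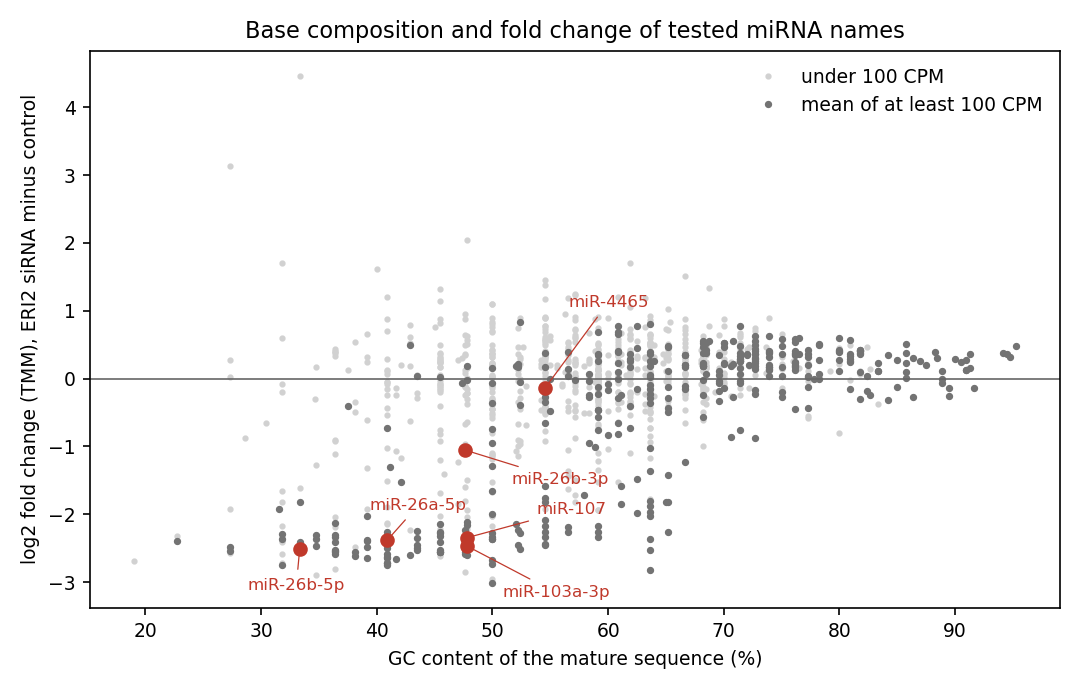
Log2 fold change (knockdown minus control, TMM scaling) of tested miRNA names against the GC percentage of their mature sequence in RefSeq, with the 4 members, miR-4465 and miR-26b-3p marked in red, names of at least 100 CPM in dark grey and the others in light grey. Among names of at least 100 CPM, those with up to 50% GC have medians of -2.41 and -2.35 in the 2 lowest GC classes, as low as the members, and those above 70% GC a median of 0.26.

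The 6 host genes differed far less between the groups than the mature names. In RNA-seq, 8.54% of 18843 tested genes passed the test in either direction, 4.25% as lower and 4.29% as higher, and among the hosts 1 of 6 passed, CTDSP2. DESeq2 and limma-voom likewise each called 1 of the 6, and 2 of 6 had an unadjusted p under 0.05 in each of the 3 tools. In edgeR 4999 of the 18843 tested genes had an unadjusted p under 0.05. The log2 fold changes of the hosts ran from -0.36 to 0.03, against -2.51 to -2.34 with TMM and -1.29 to -1.13 with total library size for the mature names. The tables are separate assays with their own scaling, and the difference between host and miRNA was not tested.

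CTDSP2, which encodes a small C-terminal domain phosphatase and hosts MIR26A2, was at 90.7, 95.8 and 104 CPM in control and at 72.7, 78.9 and 75.03 CPM in knockdown libraries. The highest knockdown library lay below the lowest control library. The mean went from 96.7 ± 6.57 (SD, n = 3) to 75.6 ± 3.14 CPM, 78.1% of control, with a log2 fold change of -0.36 (SE 0.0732; edgeR's quasi-likelihood test, Benjamini-Hochberg adjusted p = 0.0122). The call was lost without control replicate 3 (-0.32, adjusted p = 0.0647) and without knockdown replicate 3 (-0.35, adjusted p = 0.0533), and over 15 alternatives the adjusted p ran from 0.000805 to 0.0725.

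CTDSPL, host of MIR26A1 and long described as a tumour suppressor of the short arm of chromosome 3, was at 51.3, 58.5 and 57.2 CPM in control and 54.4, 50.8 and 49.9 CPM in knockdown libraries. The groups overlapped, and it did not pass (log2 fold change -0.11, SE 0.0777, adjusted p = 0.408). CTDSP1, host of MIR26B, was at 35.8, 34.7 and 37.1 CPM in control and 32.0, 35.3 and 33.4 CPM in knockdown libraries. It overlapped as well and did not pass (log2 fold change -0.10, SE 0.0779, adjusted p = 0.464). Set beside its host, miR-26b-5p stood at 40.3% of control in total CPM and CTDSP1 at 97.4%.

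PANK3, host of MIR103A1 and one of the cytosolic pantothenate kinases, was at 294, 332 and 307 CPM in control and 276, 274 and 252 CPM in knockdown libraries. The groups did not overlap, but the log2 fold change of -0.22 did not pass (SE 0.0781, adjusted p = 0.0945). With replicates 2 and 3 of each group alone it was -0.28 and passed (adjusted p = 0.00523). PANK2, host of MIR103A2 and the gene mutated in pantothenate kinase-associated neurodegeneration, was at 66.1, 63.1 and 64.5 CPM in control and 63.1, 66.5 and 68.1 CPM in knockdown libraries. Its groups overlapped and the log2 fold change was 0.03 (SE 0.0690, adjusted p = 0.822).

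PANK1, the host of MIR107 and a known p53 target, was at 29.8, 29.6 and 30.3 CPM in control and 27.6, 27.0 and 25.9 CPM in knockdown libraries. The groups did not overlap, yet the difference did not pass (log2 fold change -0.15, SE 0.0775, adjusted p = 0.222). miR-107 stood at 45.3% of control in total CPM and PANK1 at 93.5%. Short reads of miR-103a-3p may be among the miR-107 counts. miR-26b-5p differs from the far more abundant miR-26a-5p by C11U and C21U only, so misassigned reads may be among its counts too. Neither was tested. The share of all genes whose groups did not overlap is not given here, so separation of a host's libraries is description only. Hosts that missed the threshold are not thereby shown to be unaltered.

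**Figure D4:**
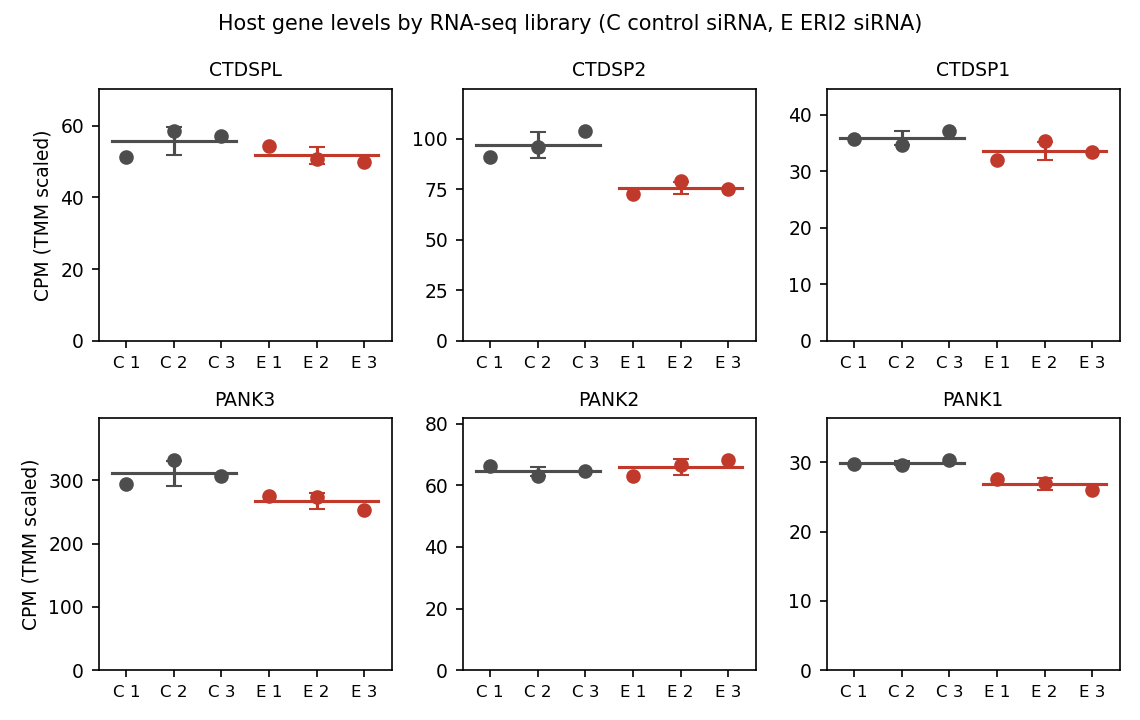
CPM after TMM scaling of the 6 host genes in each control and knockdown RNA-seq library; points are libraries, lines are group means with SD, and each axis starts at 0. CTDSP2 is lower in all 3 knockdown libraries (72.7 to 78.9 against 90.7 to 104 CPM), PANK3 and PANK1 are separated by less, and the other 3 overlap.

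By the same measure, the 2 genes whose pattern over the 6 RNA-seq libraries was most like each host were picked among 10315 genes with at least 10 CPM. They were LASP1 and C17orf103 for CTDSP2, TRAFD1 and PSMB6 for CTDSPL, and SFMBT2 and LSM14B for CTDSP1. For PANK3 they were GOPC and EFR3A, for PANK2 PIH1D1 and MCM3AP, and for PANK1 DNAJC14 and ARFGEF2. The gene table also lists 6 of the 8 miRNA genes looked for, at 0 to 23 counts per library. Only MIR26B passed the filter (7 to 23 counts), with a log2 fold change of 0.04 (SE 0.526, adjusted p = 0.969), and a library of long RNA does not measure mature miRNA.

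Pantothenate kinases open the coenzyme A pathway, so its other genes were read from the same fit. Of 16 tested genes of coenzyme A synthesis and recycling, the 3 hosts included, 1 passed as higher and 1 as lower. Among all tested genes 4.29% passed as higher and 4.25% as lower. The median log2 fold change of the 16 was -0.10 beside 0.003 over all genes. SLC5A6, the transporter that brings pantothenate into the cell, rose by 0.23 on the log2 scale (adjusted p = 0.0479), and lost its call when any single library was left out. NUDT19, a peroxisomal enzyme that cleaves coenzyme A, fell by 0.38 (adjusted p = 0.0265), and lost its call without replicate 2 or 3 of either group. ACSS2, which makes acetyl-CoA from acetate, and SLC25A16, a mitochondrial carrier, came next at -0.25 (adjusted p = 0.0707) and 0.34 (adjusted p = 0.0849).

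A list of 18 genes held C-terminal domain phosphatases, the REST complex and SMAD proteins, the 3 CTDSP hosts included. Of these, 2 passed, both as lower (4.25% of all genes did), with a median of -0.10. They were CTDSP2 and RB1, the retinoblastoma protein that CTDSP phosphatases are reported to act on. RB1 was at 106, 118 and 106 CPM in control and 86.0, 82.5 and 78.0 CPM in knockdown libraries and fell by 0.42 (SE 0.0727; edgeR's quasi-likelihood test, Benjamini-Hochberg adjusted p = 0.00593). Its groups did not overlap and its call held when each library was left out. CTDSPL2 (-0.23, adjusted p = 0.0596) and UBLCP1, a phosphatase of the same domain (-0.26, adjusted p = 0.0888), did not pass.

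Of 26 tested genes of miRNA processing, loading and tailing, 2 passed, both as higher (4.29% of all genes did), with a median of 0.04. They were TNRC6A, the GW182 protein that Argonaute recruits to silence targets, at 0.34 (adjusted p = 0.00940), and TARBP2, a partner of Dicer, at 0.26 (adjusted p = 0.0488). TNRC6A lost its call without control replicate 3 or knockdown replicate 2, and TARBP2 kept it only when knockdown replicate 1 was the library left out. DGCR8, the partner of Drosha, was at 0.29 and just missed the threshold (adjusted p = 0.0522), and the exonuclease XRN1 was at -0.16 (adjusted p = 0.151). With total library size 4 of 26 passed, each as higher, beside 5.18% of all genes. With replicates 2 and 3 alone 5 passed as higher and 1 as lower. Among all genes 13.9% then passed as higher, 14.1% as lower and 28% in either direction.

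Genes reported as targets of the 2 families were looked at in turn. Of 28 reported targets of miR-26, 1 passed as higher (4.29% of all genes did) and 3 as lower (4.25%). The median log2 fold change of the 28 was -0.06. EZH2, the histone methyltransferase that is among the most cited miR-26 targets, was at 132, 128 and 116 CPM in control and 152, 147 and 150 CPM in knockdown libraries. It was higher in all 3 knockdown libraries and rose by 0.25 on the log2 scale (adjusted p = 0.0419), but kept its call only when control replicate 1 was the library left out. The 3 lower genes were RB1, the lysyl hydroxylase gene PLOD2 (-0.36, adjusted p = 0.0151; lost without replicate 3 of either group) and HMGA2, an architectural chromatin protein (-0.32, adjusted p = 0.0481). HMGA2 lost its call with total library size (adjusted p = 0.0756) and without replicate 2 or 3 of either group.

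Of 20 reported targets of miR-103/miR-107, 3 passed, each as lower (4.25% of all genes did), with a median of -0.02. CAV1, the caveolin gene described as a target in insulin signalling, was at 16.5, 17.2 and 16.9 CPM in control and 11.6, 10.9 and 9.63 CPM in knockdown libraries. It fell by 0.65 (SE 0.102; edgeR's quasi-likelihood test, Benjamini-Hochberg adjusted p = 0.00393), and kept its call when each library was left out. ARNT, the beta subunit of hypoxia-inducible factor, fell by 0.32 (adjusted p = 0.0142; lost without replicate 2 or 3 of either group), and the antiproliferative gene BTG2 by 0.42 (adjusted p = 0.0169; lost without control replicate 3, knockdown replicate 2 or knockdown replicate 3). DICER1, at 0.18, did not pass with TMM (adjusted p = 0.158) and passed as higher with total library size (adjusted p = 0.0475). BACE1, the beta-secretase gene, was at -0.22 (adjusted p = 0.117).

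In these 2 lists, 24 of 28 and 17 of 20 genes did not pass the test. With replicates 2 and 3 alone, 13.9% of all tested genes passed as higher and 14.1% as lower. On that basis 2 rose and 10 fell of 28 miR-26 targets, and 5, each lower, passed of 20 miR-103/miR-107 targets. The genes of both lists were taken from general knowledge of reported targets in other cells, and some genes stand in both.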

How the data were processed

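RNA-seq and miRNA-seq were each made from 3 control and 3 ERI2 siRNA libraries of HEK293T cells. The authors deposited raw read counts per gene and raw read counts per mature miRNA name. The tools were TopHat2 2.0.10, HTSeq 0.6.1p1 and CASAVA 1.8.2 on build hg19, per the submitters' processing notes, which state no roles. The sources used here give no annotation release, strand setting or miRNA aligner. The labels give 1 long-RNA library kit for all samples.

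Names with low counts were removed (filterByExpr), libraries scaled by TMM, and groups compared within each assay with edgeR 4.0.16 (quasi-likelihood, robust; R 4.3.3) over all names, with Benjamini-Hochberg adjusted p under 0.05 as the threshold. Alternatives used DESeq2 1.42.0, limma 3.58.1 (voom), other scalings, filters and sets of libraries, and the replicate number as a block. Ratios were compared by exact permutation (scipy 1.17.1). Intervals are Clopper-Pearson at 95%. All columns had a sample.

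The members and gene lists were chosen with earlier results of these data known. Members, ERI2 and names sharing their hairpins or seeds were named, with up to 6 genes per direction that passed and the 2 smallest p-values that did not in each list. On simulated data the fit recovered 58.5% of 200 genes changed 1.5-fold (6 false calls) and 75.5% at 2-fold (9 false) among the 18843 of the RNA-seq comparison, and 47.5% (6 false) and 79.5% (5 false) of 200 names among the 1316 of the miRNA comparison. Recovery with TMM factors as far apart as those of the miRNA libraries was not tested. Recovery with as many changed names as the 449 called in the miRNA comparison was not tested either.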

Additional observations from a re-analysis of the deposited data

How the results depend on the processing

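The 4 mature members kept their direction and their call in all 16 alternatives run, and ERI2 in all 15. Over all results, 88 alternative values of counts and ratios stayed close to the reported one and 14 moved; for single names 545 stayed, 33 newly passed, 58 no longer passed and 6 reversed. The 449 miRNA names called became 1210 with total library size and 820 with the upper quartile, and 32.5% of calls were higher as reported, 85.2% with total library size and 70.7% with the upper quartile. The 1609 genes called became 2429 with no count filter, 5292 with replicates 2 and 3 alone, and from 371 to 2751 when 1 library was left out: 724 without control replicate 2, 485 without control replicate 3, 2751 without knockdown replicate 1, 440 without knockdown replicate 2 and 371 without knockdown replicate 3. With total library size 67.8% of gene calls were higher, against 50.3% as reported. Of the hosts, 2 passed with replicates 2 and 3 alone, where 28% of all genes passed. There 3 hosts had an unadjusted p under 0.05, beside 7645 of 18915 genes. From 0 to 1 host passed when 1 library was left out, and the count of 0 in edgeR came without control replicate 3 or knockdown replicate 3. Unadjusted p was under 0.05 for 2 hosts and 3918 of 19576 genes without control replicate 3. Without knockdown replicate 3 it was so for 1 host and 3362 of 19270 genes. Reversed log2 fold changes were 0.16 for miR-26b-3p and 0.16 for miR-503-5p with total library size, 1.08 and 0.32 for miR-4465 with total library size and upper quartile, and for MIR26B, at 7 to 23 counts, from -0.65 to 0.44 when 1 library was left out. The cause of these changes was not tested.

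With the replicate number as a block (replicate block), 203 genes and 0 of 6 hosts passed in edgeR, and 400 miRNA names. In that fit 1 host had an unadjusted p under 0.05, beside 3628 of 18843 genes. Deviations from the group mean in same-numbered libraries of the 2 groups correlated at -0.30 to -0.08 in RNA-seq and -0.14 to 0.0015 in miRNA-seq. These deviations are centred on 3 libraries per group. They cannot show whether same-numbered libraries were prepared together, so the fit with the block is not set aside. With the block, 0 of 16 coenzyme A genes and 0 of 26 genes of miRNA processing passed. In the list of C-terminal domain phosphatases 1 of 18 passed, of miR-26 targets 1 of 28 and of miR-103/miR-107 targets 1 of 20, each as lower. SLC5A6, NUDT19, TNRC6A, TARBP2 and EZH2 thus lost their calls in that fit. Low counts limit miR-26b-3p (10 to 16 per library), miR-26a-2-3p and MIR26B.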
